A study of Mus musculus with 2 samples.

Results

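The tallest distal sites of open chromatin in the mouse adrenal gland are described here, as stretches that DNase I cut strongly in both of 2 libraries and that lie away from annotated gene starts. They were chosen by their height: in each library an autosomal peak had to stand at or above the 90th percentile of its list, with its centre over 1 kb from any annotated transcription start site (TSS), and a peak of replicate 1 was kept when it overlapped such a peak of replicate 2. This gave 4207 sites out of 153552 autosomal peaks in replicate 1 and 161778 in replicate 2. Whole adrenal glands came from female B6CASTF1/J mice, the F1 hybrid of C57BL/6J and the wild-derived strain CAST/EiJ, at 36 days of age, with no allele engineered and no treatment given in the labels. Both libraries belong to 1 group and were numbered as biological replicates 1 and 2 from separately numbered glands with 1 donor record. With 1 group there was no contrast to test over samples, and peaks of 1 library are not replicates, so every comparison below sets shares and levels side by side and gives no p-value.

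DNase I cuts DNA that nucleosomes leave bare, so tall peaks mark regulatory elements held open by bound proteins. Away from promoters such elements are mostly enhancers, which raise transcription of genes at a distance, and insulators, where the zinc-finger protein CTCF binds and anchors chromatin loops. A bound protein shields its own bases from the enzyme, and the short gap in cutting that results is called a footprint. The adrenal cortex makes steroid hormones under the control of the nuclear receptor SF-1, encoded by Nr5a1, and the medulla makes catecholamines in chromaffin cells. A whole gland mixes these cells with vessels, capsule and immune cells, so that the height of a site cannot separate the share of nuclei that are open from how open each one is.

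The sequences of 10 sites are shown from the mm10 reference, plus strand, 5′ to 3′, with capitals for bases that lay under a footprint in both libraries. They are reference bases of C57BL/6J and not those of the CAST/EiJ allele. The 3 tallest sites of all are given first, because they resemble other places in the genome.

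Tallest site, chr6:49236441-49236620: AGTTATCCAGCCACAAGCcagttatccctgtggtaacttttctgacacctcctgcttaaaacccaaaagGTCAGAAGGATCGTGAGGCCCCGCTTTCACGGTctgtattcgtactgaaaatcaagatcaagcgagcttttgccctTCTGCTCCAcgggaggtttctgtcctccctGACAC
Next tallest site, chr9:123461921-123462100: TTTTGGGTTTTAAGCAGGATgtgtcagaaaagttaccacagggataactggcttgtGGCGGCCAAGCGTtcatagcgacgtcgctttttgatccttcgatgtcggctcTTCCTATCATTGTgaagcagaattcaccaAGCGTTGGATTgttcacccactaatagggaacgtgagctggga
Site ranked below it, chr13:112578161-112578320: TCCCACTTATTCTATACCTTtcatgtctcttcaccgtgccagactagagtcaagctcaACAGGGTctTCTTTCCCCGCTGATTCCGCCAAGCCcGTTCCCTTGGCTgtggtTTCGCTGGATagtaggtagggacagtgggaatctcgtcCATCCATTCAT

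The tallest sites that held a match to the CTCF, AP-1 and SF-1 consensus under a footprint in both libraries are shown for the position of those matches. At the AP-1 site only the bases GTCA of the match lay under a footprint in both libraries. AP-1 is the dimer of FOS and JUN proteins and binds TGANTCA, and the SF-1 consensus was CAAGGTCA, read on either strand. With positions counted from 1 at the first base printed, the CTCF match begins at base 115 on the minus strand, the AP-1 match at base 80 on the plus strand, and the SF-1 match at base 79 on the minus strand. The last of these also held an AP-1 match from base 103.

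CTCF site, chr7:73618401-73618660: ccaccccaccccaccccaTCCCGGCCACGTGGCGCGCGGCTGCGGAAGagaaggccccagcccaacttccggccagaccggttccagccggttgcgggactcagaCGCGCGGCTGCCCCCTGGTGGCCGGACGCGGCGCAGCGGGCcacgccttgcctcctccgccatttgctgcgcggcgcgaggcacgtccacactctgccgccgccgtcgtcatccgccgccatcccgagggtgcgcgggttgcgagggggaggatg
AP-1 site, chr3:105895361-105895560: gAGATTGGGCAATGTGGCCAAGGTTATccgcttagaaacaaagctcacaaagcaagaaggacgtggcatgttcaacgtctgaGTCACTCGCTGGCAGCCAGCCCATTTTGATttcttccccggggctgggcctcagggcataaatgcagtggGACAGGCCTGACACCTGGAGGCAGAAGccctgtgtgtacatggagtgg
SF-1 site, chr14:121437161-121437340: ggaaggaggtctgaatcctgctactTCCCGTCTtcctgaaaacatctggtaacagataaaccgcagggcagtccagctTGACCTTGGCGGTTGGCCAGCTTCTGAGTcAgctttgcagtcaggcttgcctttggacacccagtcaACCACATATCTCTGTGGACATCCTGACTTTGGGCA

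The sites at 4 genes of steroid synthesis are shown because they are the tallest in the domains of those genes.

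Site in an intron of Cyp11a1, chr9:58009041-58009280: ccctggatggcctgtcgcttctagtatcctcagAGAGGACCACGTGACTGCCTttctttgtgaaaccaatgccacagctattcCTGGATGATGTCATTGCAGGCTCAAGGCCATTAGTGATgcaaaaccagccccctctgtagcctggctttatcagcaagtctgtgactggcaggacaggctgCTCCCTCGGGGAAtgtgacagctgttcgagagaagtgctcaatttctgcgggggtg
Site upstream of Star, chr8:25806231-25806530: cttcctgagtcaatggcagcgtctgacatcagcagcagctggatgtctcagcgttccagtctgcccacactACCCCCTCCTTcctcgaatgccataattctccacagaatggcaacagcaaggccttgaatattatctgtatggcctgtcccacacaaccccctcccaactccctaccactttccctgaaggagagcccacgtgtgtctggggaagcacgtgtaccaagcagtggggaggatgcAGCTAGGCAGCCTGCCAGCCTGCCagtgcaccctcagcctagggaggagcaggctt
Site in the domain of Scarb1, chr5:125252741-125252980: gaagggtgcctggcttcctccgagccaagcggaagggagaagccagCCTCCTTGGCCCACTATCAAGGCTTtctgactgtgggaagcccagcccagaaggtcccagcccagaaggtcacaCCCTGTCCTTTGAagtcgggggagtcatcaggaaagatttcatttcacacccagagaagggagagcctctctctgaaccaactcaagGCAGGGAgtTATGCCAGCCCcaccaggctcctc
Site near Fdx1, chr9:51977501-51977680: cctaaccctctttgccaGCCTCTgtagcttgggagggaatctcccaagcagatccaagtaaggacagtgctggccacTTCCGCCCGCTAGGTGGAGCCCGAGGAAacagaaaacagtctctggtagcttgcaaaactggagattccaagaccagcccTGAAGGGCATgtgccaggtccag

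Selection left few peaks. The 90th percentile was a height of 4.317 in replicate 1 and 6.205 in replicate 2, where height is the signal the authors deposited for each peak, whose unit the sources used here do not define. Of the autosomal peaks at or above it, 4849 of 15535 in replicate 1 (31.2%) and 5266 of 16386 in replicate 2 (32.1%) were distal, so the tall peaks were mostly promoters. Among distal peaks alone, 4.04% of 120079 in replicate 1 and 4.17% of 126253 in replicate 2 reached the threshold. Of the 4849 tall distal peaks of replicate 1, 4207 (86.8%) had a tall distal partner, 635 had a partner below the threshold of replicate 2, 6 had none and 1 had a tall partner that was not distal. From the side of replicate 2, 4209 of 5266 peaks (79.9%) were shared. The members nearest inside the threshold of replicate 1 included an intron of Ren1 (4.317 and 7.758 in replicates 1 and 2) and a site 6.0 kb from Sox4 (4.317 and 7.282). Just outside lay sites near Hs6st1 (4.308 and 5.234), Wdr18 (4.308 and 6.028) and Atp23 (4.308 and 6.426), so that the edge separates near-equal heights. The sites were set against 89459 other distal sites shared by both libraries, against the 8269 of these between the 80th and 90th percentile in both, called the next-lower sites, and against 10395 promoter sites that passed the same thresholds. The promoter sites, called tall promoters, were not matched to the members in height.

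Heights spanned close to a factor of 10, and replicate 2 was almost always the higher library. They ran from 4.317 to 42.3 in replicate 1 with a median of 6.008, and from 6.205 to 55.24 in replicate 2 with a median of 9.232. The members were higher in replicate 2 at 4179 of 4207 sites (99.3%). The thresholds required this of every member below 6.205 in replicate 1, where the median was 6.008. The median log2 ratio of replicate 2 to replicate 1 was 0.61, with an interquartile range of 0.48 to 0.75 and an SD over sites of 0.21. The thresholds themselves differ by 0.52 on that scale, and the tall promoter sites had a median ratio of 0.59, so most of this shift is shared by tall peaks. The rank correlation of the heights across the 4207 sites was 0.836 (Spearman), and Pearson's r on log2 heights was 0.908. Both describe sites that were picked for being tall in both libraries and share their sequence and mappability. Only 679 sites stood at 2 or more times the threshold in both libraries and 42 at 4 or more times. Tall promoter sites were taller still, with medians of 9.521 and 14.28, while other shared distal sites had medians of 0.972 and 1.13.

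**Figure D1:**
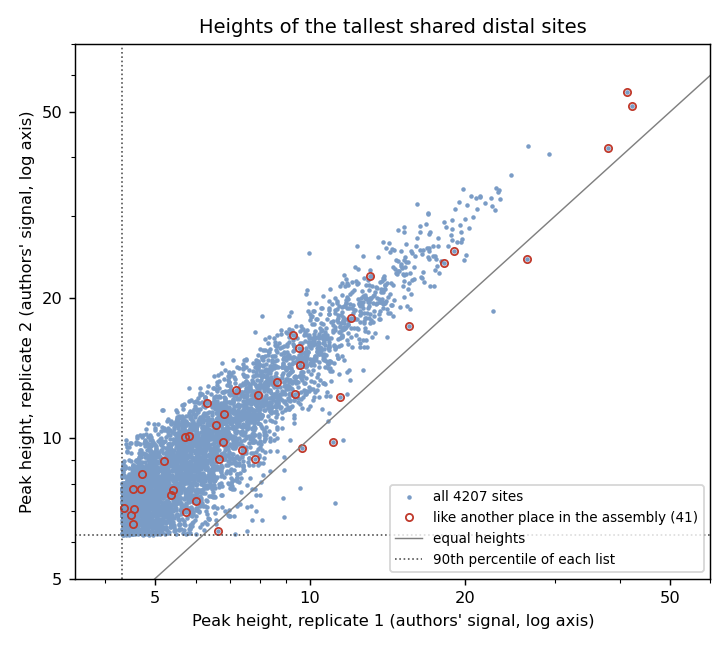
Each point is 1 of 4207 sites, with the authors' peak signal in replicate 1 on the x axis and in replicate 2 on the y axis, both logarithmic. Dotted lines mark the thresholds of 4.317 and 6.205, and red circles mark the 41 sites that resemble another place in the assembly. Nearly all points lie above the line of equal heights, which the thresholds require of those below 6.205 in replicate 1.

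The tallest members were set apart by their sequence. The site at chr6:49236441-49236620, between genes and 21.6 kb from Igf2bp3, had heights of 41.4 and 55.2. That at chr9:123461921-123462100, in an annotated exon of Lars2 and 16.7 kb from the nearest TSS, that of Limd1, had 42.3 and 51.4, and that at chr13:112578161-112578320, in an intron of Il31ra, had 38.0 and 41.8. They matched 2, 5 and 6 other places of the assembly in that order, at up to 99.4%, 97% and 97.8% identity, and only 27.2%, 46.7% and 32.5% of their 32-base words occur once in the genome. The second shares a run of 39 identical bases with the minus strand of the first, from its base 21 to its base 59. As background, all 3 read as stretches of the 28S ribosomal RNA, whose genes stand in long tandem arrays that the assembly does not lay out in full. The annotation used here names no ribosomal gene at these positions, and where their reads came from was not tested. Over all members, 41 (0.97%) matched another place at 90% identity or more over at least 80% of their length, among them 6 of the 100 tallest and 4 of the 28 that were lower in replicate 2. Near Ezh2 and Pdia4, 2 members matched the annotated 4.5S RNA gene Rn4.5s at 98.9% and 98.1% identity over 95 and 160 bases, the second of them among the 41. No member matched the mitochondrial genome, and 97.3% of the members had at least 90% of their 32-base words unique.

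Below those 3 stood 7 sites at which every 32-base word occurs once in the genome. An intron of Nr1d1, which encodes the clock repressor REV-ERBα, held the next at chr11:98773781-98774120, with heights of 29.1 and 40.8 and a GC-box. An intron of Dync1li2, a light intermediate chain of the motor dynein, reached 26.5 and 42.4. A site 17.9 kb from Tfap4, a helix-loop-helix transcription factor gene, reached 24.6 and 36.8, and it lay 135 bp from a start of Srl that is listed only in the comprehensive gene set. The remaining 4 of the 10 tallest were 14.7 kb from the zinc-finger gene Zfp395 (23.3 and 34.1), in an intron of Mnt, a repressor that pairs with MAX (23.0 and 34.4), in an exon of Angptl6, a secreted angiopoietin-like protein (23.2 and 33.7), and 5.96 kb from Ctdsp1, a phosphatase (23.4 and 32.6). All 7 lay between 1.38 and 14.7 kb from the nearest TSS of the basic gene set, and replicate 2 was the higher library at each, as at 99.3% of members.

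Members lay nearer to genes than other distal sites did. Their median distance to the nearest TSS was 9.04 kb, against 14.6 kb for other shared distal sites and 11.4 kb for the next-lower sites. In distance classes, 715 members (17.0%) lay between 1 and 2.5 kb from a TSS, 1518 (36.1%) between 2.5 and 10 kb, 1716 (40.8%) between 10 and 50 kb and 258 (6.13%) beyond 50 kb, where the other shared distal sites had 10.1%, 28.6%, 46.3% and 15.04%. The farthest was in an intron of the repair gene Rad51b, 312 kb from any TSS, with heights of 6.22 and 8.79. By the position of the centre, 2016 members (47.9%) were intronic, 1828 (43.5%) between genes and 363 (8.63%) exonic, where the other sites had 54.1%, 39.6% and 6.28%. Of the members, 412 (9.79%) lay within 1 kb of a start that only the comprehensive gene set lists, against 4.60% of the other sites, so a part of them are promoters by a wider definition.

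Base composition also differed. The median GC content of the central 150 bp was 57.3% in members, against 51.3% in other shared distal sites, 54.0% in the next-lower sites and 66.7% in tall promoters. The ratio of observed to expected CpG was 0.343 in members, 0.221 in other sites and 0.866 in tall promoters, so that members lay between distal sites and promoters on both measures. Repeat-masked sequence covered at least 50% of the window at 18 members (0.428%), against 4.51% of the other sites. The members were as narrow as other peaks, with a median width of 180 bp in both sets. The stretch around them with a false discovery rate of the cut rate under 0.05 was longer, at medians of 442 and 466 bp in replicates 1 and 2, against 265 and 269 bp around the other sites and 1000 and 1067 bp around tall promoters.

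Footprints were found at almost every member. At least 1 footprint overlapped 4198 members (99.8%) in replicate 1 and 4206 (99.98%) in replicate 2, against 82.0% and 81.0% of other shared distal sites and 98.8% and 99.3% of the next-lower sites. No member lacked one in both libraries. A member held on average 3.58 and 3.82 footprints, an other site 1.73 and 1.64, and a tall promoter 4.51 and 4.66. Footprints covered 29.9% and 34.9% of the bases of members, against 11.2% and 11.2% in other sites. The footprints themselves were longer in members, with medians of 13 and 16 bases against 9 and 10, and 11.3% and 16.3% of them spanned at least 30 bases, against 3.05% and 4.97%. Of the footprints in members, 84.3% of those of replicate 1 touched one of replicate 2 and 76.5% of those of replicate 2 touched one of replicate 1, where the other sites had 50.7% and 52.7%. Tall promoters were close to members in coverage (31.1% and 34.4%), median length (13 and 15 bases) and touching footprints (83.0% and 78.4%). Fewer of their footprints spanned at least 30 bases (8.18% and 10.9%). The next-lower sites lay between members and other sites, with coverage of 20.6% and 23.6%, medians of 11 and 12 bases and 72.2% and 66.5% touching. The number of cuts at a site limits what a footprint caller can detect, and members have more cuts by the way they were selected. The part of height in these differences was not tested. Within members the rank correlation of height and footprint number was 0.258 in replicate 1 and 0.196 in replicate 2, over 4207 sites of the same libraries. It was 0.570 and 0.587 in other shared distal sites, 0.146 and 0.205 in the next-lower sites, and 0.318 and 0.269 in tall promoters. Members were cut off below the thresholds, so their values cover only a part of the range of heights.

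The 5 members with the most footprints were between 380 and 620 bp wide. An intron of the imprinted zinc-finger gene Peg3 held 12 footprints in each library over 620 bp, at chr7:6728321-6728940, although its heights of 4.97 and 8.19 were below the member medians. An intron of Clec11a, a secreted growth factor, held 13 and 10, an intron of Phf19, a Polycomb-associated protein, 11 and 10, a site 1.11 kb from Zc3h4 13 and 8, and a site 52.2 kb from the signalling gene Wnt7b 9 and 11. In the comprehensive gene set a start of Phf19 lay 294 bp from its site and a start of Zc3h4 809 bp from its site.

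Sequence matches were counted in windows of 150 bp around the centre, on both strands, for 36 consensus motifs. The most frequent was AP-1, in 780 members (18.5%, Wilson 95% interval 17.4% to 19.7%), against 20.1% of other shared distal sites, 2.60% of tall promoters and 3.96% of windows 500 bp to the sides of members. CTCF matches stood in 527 members (12.5%, 11.6% to 13.6%), against 5.30% of other sites, 12.7% of the next-lower sites, 1.31% of tall promoters and 0.155% of the side windows. The SF-1 consensus stood in 140 members (3.33%, 2.83% to 3.91%), a lower share than the 5.05% of other shared distal sites and above the 1.19% of the side windows. The related NR4A consensus AAAGGTCA, bound by nuclear receptors that trophic hormones induce, was in 53 (1.26%), against 2.25%, and the GATA consensus AGATAAG in 57 (1.36%), against 2.34%. The intervals cover counting error only, and neighbouring sites are not independent.

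The motifs with the highest ratio to other distal sites were those usual at promoters. The GC-box GGGCGGGG, bound by SP and KLF factors, was in 307 members (7.30%), against 1.70% of other sites and 30.8% of tall promoters. NRF1 (GCATGCGC, a regulator of mitochondrial genes) was in 63 (1.498%), against 0.430%. CRE (TGACGTCA), the element bound by CREB in response to cyclic AMP, was in 48 (1.14%), against 0.395%. EGR (GTGGGCG) was in 163 (3.87%), against 1.38%, and ETS (CGGAAGT) in 77 (1.83%), against 0.751%. ZNF143, a factor of promoters and loops, was in 8 (0.190%), against 0.0134%. At the other end, MEF2 was in 7 members (0.166%), against 0.349%, REST, the repressor of neuronal genes, in 1 (0.0238%), against 0.139%, and DR1, a paired nuclear receptor half-site element, in none, which leaves a Wilson upper limit of 0.0912%, against 0.0157% of other sites. CpG-holding consensuses are met more often in sequence rich in GC, and the part of base composition in these ratios was not tested. None of the 36 motifs was found in 1177 members (27.98%).

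**Figure D2:**
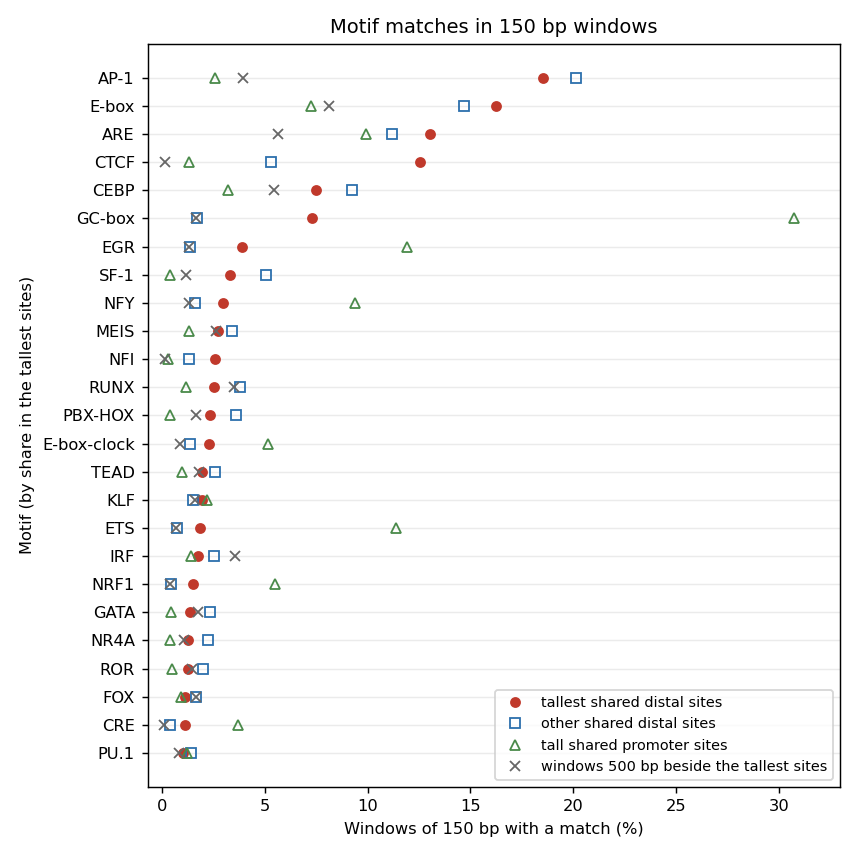
For the 25 motifs found in at least 40 members, the x axis gives the percentage of 150 bp windows with a match in the tallest shared distal sites (red), in other shared distal sites (blue squares), in tall shared promoter sites (green triangles) and in windows 500 bp beside the tallest sites (crosses). CTCF is at 12.5% in the tallest sites against 5.30% in other distal sites, and the GC-box is at 7.30% against 1.70%, with 30.8% in tall promoters.

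Motif content changed with height inside the set. When members were cut into 4 height groups of equal size, CTCF matches stood in 16.1%, 14.8%, 12.4% and 6.84% from the lowest to the highest group of replicate 1, and in 12.5%, 13.7%, 14.2% and 9.79% by replicate 2. The GC-box went the other way, with 4.28%, 4.66%, 6.09% and 14.2% by replicate 1 and 3.23%, 5.80%, 5.90% and 14.3% by replicate 2. SF-1 was at 1.43% in the highest group by replicate 1 and 1.52% by replicate 2, below the 3.33% and 4.85% of the lowest groups. AP-1 showed no common order, with 17.5% and 18.4% in the lowest and highest group by replicate 1 but 20.7% and 16.1% by replicate 2. Among the 100 tallest members 2 held a CTCF match, 15 an AP-1 match and none an SF-1 match.

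**Figure D3:**
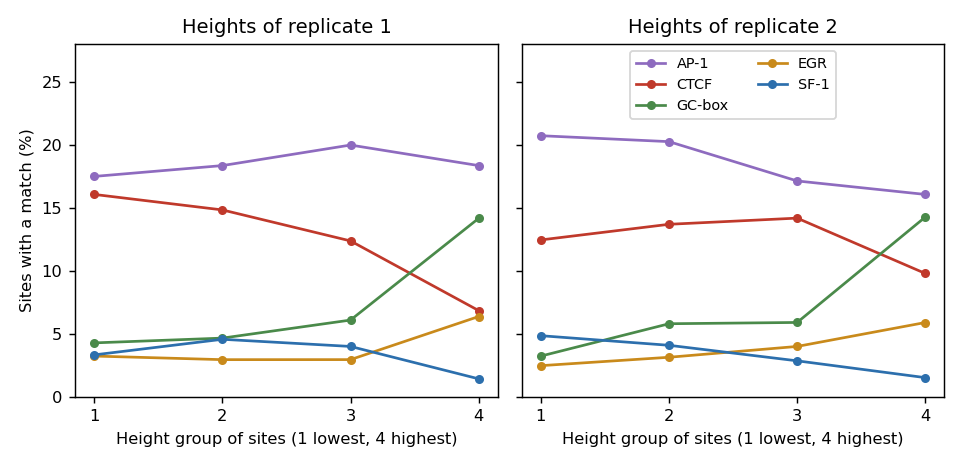
The x axis gives 4 equal groups of the 4207 sites from the lowest (1) to the highest (4), by height in replicate 1 (left) and in replicate 2 (right), and the y axis the percentage of sites with a motif match. In both panels the GC-box climbs to just over 14% in the highest group while CTCF and SF-1 are at their lowest there.

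Motif content also moved with distance from genes. From the class at 1 to 2.5 kb to the class beyond 50 kb, the share with AP-1 was 12.3%, 17.7%, 20.8% and 26.0%, and that with the GC-box 11.9%, 8.50%, 4.78% and 4.26%. SF-1 stood at 1.96%, 3.49%, 3.44% and 5.43%, the last of these being 14 sites of 258. In the other shared distal sites AP-1 was at 16.1%, 19.4%, 20.8% and 22.2% over the same classes, so that the order with distance was common to both sets. CTCF was most frequent in the middle classes, at 14.0% and 13.4%, against 9.09% and 7.75% in the nearest and farthest.

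Footprints sat on some motifs far more than on others. Of 536 CTCF matches in members, 97.8% in replicate 1 and 97.8% in replicate 2 were covered by footprints over at least 50% of their bases, and 97.4% in both. All 111 matches of NFI, a dimer factor with a long paired consensus, were covered in both libraries. CRE matches were covered at 97.96% and 93.9% of 49, NRF1 at 82.7% and 85.2% of 81, the GC-box at 79.8% and 81.7% of 366, and SF-1 at 72.9% and 73.6% of 140. AP-1 matches, although the most numerous of these, were covered at only 48.9% and 50% of 892, and 39.4% were covered in both libraries. NR4A matches were at 48.1% and 63.0% of 54, and GATA matches at 7.02% and 8.77% of 57. Over all bases of the windows, footprints covered 32.5% and 37.2%. Of the bases of GATA matches 7.02% and 9.27% were covered, below that mean, and of those of AP-1 matches 50.8% and 51.5%, above it. Coverage over all members was 56.4% and 58.4% at the peak centre and 21.5% and 24.9% at 40 bp before it. The mean was not matched to where in the window the matches lay. In other shared distal sites CTCF matches were covered at 85.9% and 86.7%, SF-1 at 36.3% and 35.2% and AP-1 at 25.5% and 18.7%, where footprints covered 12.7% and 12.9% of all bases.

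**Figure D4:**
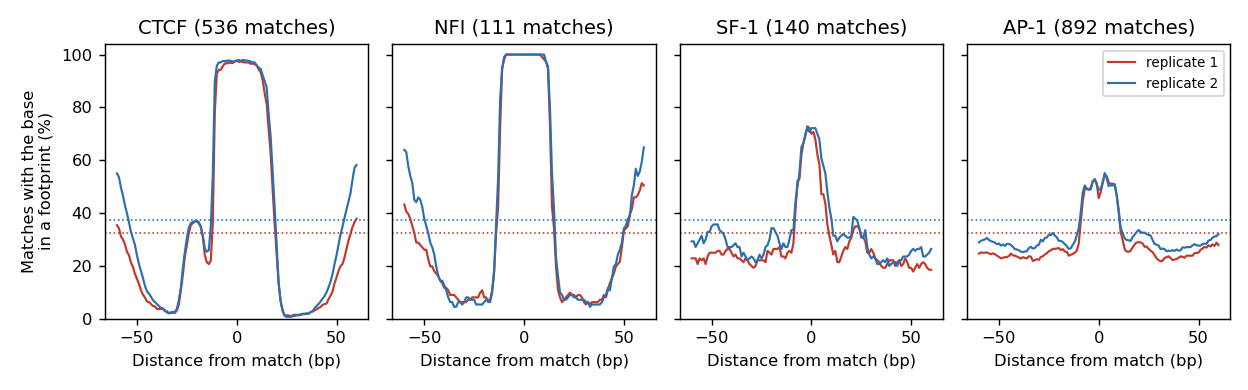
The x axis gives the distance in bp from the centre of a motif match in the tallest shared distal sites, and the y axis the percentage of matches whose base at that distance is in a footprint, in replicate 1 (red) and replicate 2 (blue), with dotted lines for the mean over all bases of the windows (32.5% and 37.2%). CTCF and NFI matches are covered at 97.8% and 100% at the centre of replicate 1 with few footprints 30 bp away, SF-1 reaches 72.9% at its highest and AP-1 54.5%.

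A protein-coding gene was assigned to each member by the nearest TSS, which names a neighbour and not a target. This gave 2992 genes, of which 2204 were nearest to 1 member, 788 to 2 or more, 244 to 3 or more and 42 to 5 or more. Among those with many members, Sept9, a septin of the cytoskeleton, had 11, Irf2bpl, a transcriptional regulator, 10, Tns1, a focal adhesion protein, 9, and Zmiz1, a coactivator, 8. With 7 each followed 1700001O22Rik, the mitotic kinase gene Aurkb, the corepressor gene Irf2bp2, Nfia of the NFI family, Ptma and Tob1. At Aurkb the 7 members made up nearly all of the 8 distal peaks of replicate 1 nearest to it and lay within 5.94 kb, and at Irf2bpl 7 members lay within 19.9 kb. Members within 10 kb of another member numbered 945 (22.5%), and the same share was 23.9% among the next-lower sites, 37.6% among tall promoters and 72.0% among the more numerous other shared distal sites.

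Genes of steroid synthesis often had a member in their domain, meaning the gene body plus 50 kb on either side, cut short where another protein-coding TSS comes first. Over all 20780 autosomal protein-coding genes, 20.5% had at least 1 member in the domain, with a median of 0 members a gene. Of the 13 autosomal genes of the steroidogenesis list 7 did (53.8%), with a median of 1 and a median domain of 96.7 kb, against 79.1 kb over all genes. Cyp11a1, which cuts the side chain of cholesterol in the opening step of the pathway, had 3, the tallest inside its own intron, 5.51 kb from its start, with 7.95 in replicate 1 and 10.2 in replicate 2. Star, which brings cholesterol into mitochondria, had 1 at 6.25 and 12.2, and this site lay 2.09 kb from the TSS of the basic set and 174 bp from one of the comprehensive set, so that it can be read as a promoter. Fdx1, the ferredoxin that feeds electrons to mitochondrial P450 enzymes, had 1 at 6.36 and 10.3, lying 14.0 kb away. Por, the electron donor of microsomal P450 enzymes, had 3, the tallest at 7.74 and 7.80 and nearer to the TSS of Tmem120a. Scarb1, the receptor that takes up cholesterol from HDL, had 6, of which the tallest at 7.43 and 10.2 lies in an intron of the non-coding RNA gene Gm32585 and another, at 5.58 and 8.66, is 3.40 kb from the Scarb1 TSS. Mrap, the accessory protein of the ACTH receptor, had 2, the taller 1.23 kb away at 5.66 and 8.69, and Nr5a1 had 2, the taller 53.6 kb away at 5.95 and 8.31. Both sites in the domain of Nr5a1 lay nearer to the TSS of Psmb7, at 2.05 and 14.6 kb from it. Hsd3b1, Hsd3b6, Cyp21a1, Cyp11b1, Fdxr and Mc2r had none, although between 7 and 16 other shared distal sites lay in the domain of each. At all 7 genes the tallest member was higher in replicate 2 than in replicate 1, as at 99.3% of all members, though at Por by less than at the others. The thresholds required this at Mrap and Nr5a1, which stood below 6.205 in replicate 1.

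Counted by gene, lists of genes that respond to hormones and stimuli had members more often. All 14 genes of the AP-1 and immediate early list had at least 1, with a median of 2 a gene in domains of a median of 73.6 kb, and 24.8% of their shared distal sites were members, against 4.49% over the genome. The tallest on that list belonged to Egr1, a growth-factor response gene (15.3 and 23.3, lying 26.3 kb away), and Ier2 (14.0 and 21.4). Of the 7 autosomal glucocorticoid target genes 6 had a member (85.7%), in domains of a median of 166 kb. Of their shared distal sites 10.2% were members, the same share as in the steroidogenesis list and below the 17.4% of housekeeping genes. Their tallest was in an intron of Per1, also a clock gene, at chr11:69097041-69097260 with 19.1 and 30.96, where the window held a CRE and a GRE, the glucocorticoid response element. The next belonged to the glucocorticoid receptor gene Nr3c1, with 8.97 and 16.9. GRE matches stood in 0.238% of members, against 0.250% of other shared distal sites. None of the 10 GRE matches in members was covered by footprints in both libraries. Of 14 adrenal transcription factor genes 9 had a member (64.3%), led by Meis1, a homeobox partner of PBX and HOX proteins (13.5 and 19.5), and Nr4a1 (13.2 and 17.96). Of the shared distal sites of that list 8.99% were members.

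Among 13 circadian clock genes 8 had a member (61.5%), with 26 members in all and 17.0% of their shared distal sites. That last share was no higher than the 17.4% of housekeeping genes and near the 15.5% of macrophage genes. Nr1d1 had 7 in its domain, from 4.56 and 8.38 in the neighbouring Thra to 29.1 and 40.8 in its own intron, and 3 of them lay nearest to the chromatin gene Msl1. Cry2, a clock repressor, had its tallest in an intron at 20.5 and 33.1, and Dbp, an output factor, at 17.8 and 25.8. Both of these windows held the clock E-box TCACGTG, the core of which CLOCK and its partner bind. Of the other clock genes with a member, only Hlf had it in the window of its tallest site (17.3 and 24.6). Nr1d1, Per1, Per2, Cry1 and Tef did not. In members 70.5% and 78.6% of the 112 matches of that consensus lay under footprints.

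Lists that mark other cells or all cells showed a range. Housekeeping genes had members at 8 of 14 (57.1%), with 15.4 and 23.8 at Ywhaz, so the share in the steroidogenesis list is no higher than that of genes used everywhere. Cholesterol synthesis and uptake had members at 5 of 14 (35.7%), led by Srebf1, a regulator of lipid synthesis (13.3 and 18.7), and Fdft1, squalene synthase (6.53 and 11.5). Lipid droplet genes had 3 of 10 (30%), with the lipase gene Lipe at 10.1 and 12.1, and Cidea at 6.84 and 11.1. Zona glomerulosa and X-zone genes, which mark the outer zone that makes aldosterone and a transient inner zone, had 3 of 16 (18.8%), near the background, with the potassium channel genes Kcnk3 at 9.17 and 12.4 and Kcnk9 at 5.42 and 8.99. Of 22 chromaffin genes 7 had a member (31.8%), the tallest at Gata3 (10.1 and 14.0) and at Snap25, a protein of vesicle release (7.80 and 11.9). The member in the domain of Th, tyrosine hydroxylase, was at 5.26 and 6.93 and lay nearer to Ascl2.

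Among supporting and blood-borne cells, macrophage genes had 7 of 14 (50%), led by a site inside the gene body of the chemokine receptor Cx3cr1 that also lies in an exon of the non-coding RNA gene Gm49427 (20.04 and 29.6), and by one in an exon of Spi1, the gene of the factor PU.1 (14.1 and 21.5). Endothelial genes had 5 of 13 (38.5%), led by Plvap (14.2 and 26.2) and Eng (7.90 and 11.8), capsule and stroma 2 of 10 (20%), with Nr2f2 at 11.8 and 13.9 and Pdgfrb at 5.31 and 8.49, and Schwann cells 1 of 6 (16.7%), at Sox10 with 4.49 and 8.26. Of markers of tissues outside the gland, skeletal muscle had 3 of 11 (27.3%), kidney 3 of 13 (23.1%) and central neurons 2 of 9 (22.2%), near the 20.5% of all genes, and liver had 1 of 13 (7.69%), below it. Their tallest were in the domains of Myog (10.1 and 14.7) and Mb (7.54 and 13.6), of Slc34a1 (6.04 and 11.5) and Pax2 (5.597 and 9.81), of Camk2a (6.74 and 10.8) and Grin2b (4.60 and 7.23), and of Ttr (5.20 and 7.83). The tallest site in a domain can lie nearer to the TSS of another coding gene, as at Plvap (Gtpbp3), Eng (Fpgs), Cx3cr1 (Xirp1), Spi1 (Mybpc3), Sox10 (Polr2f), Kcnk3 (Cib4), Cidea (Tubb6), Myog (Adora1), Slc34a1 (Pfn3) and Ttr (B4galt6). The same held at Por (Tmem120a) and Nr5a1 (Psmb7). Some of the named list sites lay near a start of the same gene that only the comprehensive set lists. These were Srebf1 (46 bp), Fdft1 (105 bp), Dbp (128 bp), Ywhaz (197 bp) and Nr3c1 (380 bp). The site in the domain of Mb lay 184 bp from such a start of Rbfox2. By that set these sites, like that of Star, can be read as promoters. Domain lengths differ between lists, from a median of 32.5 kb for lipid droplet genes to 166 kb for glucocorticoid targets, and the lists were not matched for it.

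**Figure D5:**
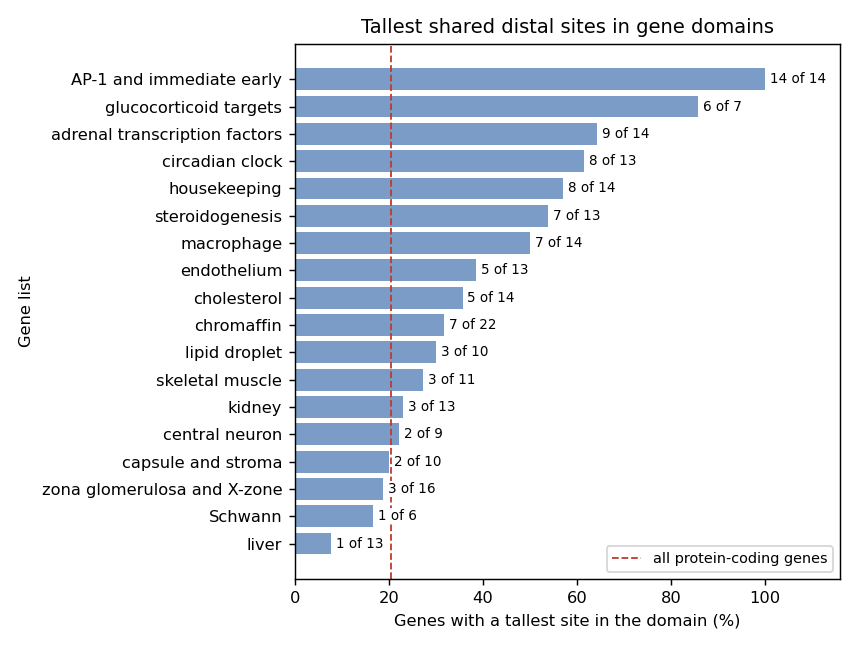
Bars give the percentage of autosomal genes of each list with at least 1 of the tallest shared distal sites in the domain, with the number of genes beside each bar, and the dashed line is the 20.5% over all protein-coding genes. The AP-1 and immediate early list is at 14 of 14 and liver at 1 of 13.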

How the data were processed

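DNase-seq was run on 2 libraries of whole adrenal gland. Per the text deposited with each sample, peaks, footprints and false discovery rates were made on mm10 from each library's own alignments, with no pooling, and the sources used here give no tools or thresholds for these steps. The deposited peak height is a signal, and all heights were whole multiples of 0.009344 in replicate 1 and 0.008826 in replicate 2, with a tolerance of 0.01 steps. If a step is 1 tag in a signal scaled to tags per 1000000, an inference from the values, the libraries held 107000000 and 113300000 tags, and the thresholds of 4.317 and 6.205 equal 462 and 703 tags. Depth is otherwise unknown, so no counting interval is given for a height. The deposited footprint lists carry the constant p-value 0.01, so footprints could not be ranked, and the deposited false discovery rates (q-values) are listed only under 0.05. The sources used here do not say how reads of the CAST/EiJ allele were aligned.

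The longer of each library's 2 peak lists was used. TSS and genes came from the basic set of GENCODE M21, sequence from GRCm38.p6, and overlaps counted from 1 bp. Percentiles were taken over the whole list before X and Y were left out. Motifs were matched to consensuses on both strands with no mismatch. CTCF, NFI, ZNF143, MEF2, REST, DR1 and GRE are named by their factor or element. Other places in the assembly were searched with blastn 2.17.0, and the rest used Python 3.11.15, matplotlib 3.10.9, numba 0.67.0, scipy 1.17.1, pandas 2.3.3 and numpy 2.4.6. Counting was checked on simulated data. The members, the 18 gene lists, the motifs and the rules for naming were chosen with earlier results of these data known. Named were the 10 tallest sites by mean height over threshold, the 5 with the most footprints, the 3 sites on each side of the threshold, the 10 genes nearest to the most members with ties, the 2 genes of each list with the tallest member, every steroidogenesis gene, and the motifs with the 6 largest and 3 smallest ratios beside AP-1, CTCF, SF-1, GATA and NR4A. Sites or genes named beyond this (Rad51b, Th, Ezh2, Pdia4, the clock genes Dbp, Hlf, Per2, Cry1 and Tef, and NFI and clock E-box coverage) were chosen after their values were seen. A few genes that these rules name are not reported here.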

Additional observations from a re-analysis of the deposited data

How the results depend on the processing

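The number of members depends on the height threshold. It was 1708 with the shorter peak list of each library, 14138 at the 80th percentile and 957 at the 95th, and between 2847 and 4678 under the other alternatives that keep both libraries. With tall distal peaks of 1 library alone it was 4849 to 5266. The mean share with a footprint over both libraries was 99.88%, fell to 99.41% at the 80th percentile and ranged from 99.79% to 99.96% without 1 replicate. The intronic share of 47.92% was 44.91% with the shorter list, 51.3% at the 80th percentile, 44.31% at the 95th, 46.3% with protein-coding TSS only, 45.41% with the comprehensive gene set, an alternative added after seeing the data, and 48.01% to 48.35% without 1 replicate. CTCF matches, at 12.53%, came to 9.66% with the shorter list, 6.792% at the 95th percentile and 11.8% to 14.38% without 1 replicate. AP-1, at 18.54%, came to 20.2% at over 5 kb from a TSS, 21.04% over the whole peak and 16.67% to 20.25% without 1 replicate. SF-1, at 3.328%, came to 2.049% with the shorter list, 1.358% at the 95th percentile and 3.228% to 3.671% without 1 replicate. The cause of these moves was not tested. Leaving out the 41 sites like another place in the assembly, also added after seeing the data, gave 4166 members, 12.55% with CTCF, 18.7% with AP-1 and 3.337% with SF-1. No paired analysis was possible because the libraries form 1 group and no test was run. Depth differs between the libraries in an unknown way, which limits comparisons of footprint number between them.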
